A study of Mus musculus with 6 samples.

Results

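Open chromatin was described at 10 genes of smooth muscle cells and pericytes, Myh11, Tagln, Cnn1, Lmod1, Rgs5, Pdgfrb, Notch3, Cspg4, Kcnj8 and Abcc9, which are 10 of the 21911 protein-coding genes of the annotation. They were chosen by name, as markers of these cells, and every peak overlapping the gene body or the 10 kb on either side of it was taken. The peaks come from Omni-ATAC-Seq, in which the Tn5 transposase inserts sequencing adapters into accessible DNA, on hearts at postnatal day 1, with 50000 nuclei in each of 6 libraries. All nuclei had passed through a 2.2 M sucrose cushion, which the study used to obtain cardiomyocyte nuclei. Input (2 libraries) holds such nuclei of wildtype hearts without immunoprecipitation. PCM1 (2 libraries) holds nuclei of WT hearts pulled down with an antibody to PCM1, a centriolar satellite protein found on the nuclear envelope of cardiomyocytes. Myc (2 libraries) holds nuclei pulled down with a Myc antibody from Nkx2-5 Cre/+; R26RSun1-Myc-Egfp/+ hearts, in which Cre under Nkx2-5 control removes a stop cassette and the nuclear membrane is tagged in the Nkx2-5 lineage. That lineage gives cardiomyocytes, smooth muscle cells and endothelial cells, so the Myc antibody does not select a single cell type. The study chose the 2.2 M cushion to keep peaks of other cell types out of the Myc maps. It reports that an antibody to phospholamban, its stain for cardiomyocytes, marked all nuclei from that cushion. Whether nuclei of other cells remained in these libraries was not tested here. The Myc hearts carry the Cre and the tag while the other hearts carry neither, so pull-down and genotype cannot be told apart.

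Smooth muscle cells contract through a set of cytoskeletal proteins that includes the smooth muscle myosin heavy chain, calponin, transgelin and leiomodin. Their genes are known targets of serum response factor (SRF), which binds the CArG box together with the coactivator myocardin. Pericytes wrap capillaries and are recruited to them by PDGF-B from the endothelium through its receptor on the pericyte. Notch signals from endothelial cells, carried to the DNA by RBPJ, maintain the mural cells of arteries. TEAD factors bind near many muscle and mesenchymal genes.

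Open chromatin at these genes lay mostly outside the start sites. Places were not counted over all regions, so this is not shown to set the members apart from other genes. The 10 windows held 111 regions, obtained by merging peaks of the 6 libraries that overlapped by at least 1 bp. Of their summits, 58 lay in introns, 25 upstream, 18 downstream, 5 in coding exons, 4 in UTRs and 1 in a noncoding exon. The nearest coding transcription start site (TSS) was a member's own for 87 of the 111. Members had a median of 10.8 peaks per 100 kb of window, averaged over the libraries, against 6.37 over all protein-coding genes. In the bulk of nuclei, fewer nuclei of a type and less accessibility per nucleus cannot be told apart.

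The sequences below carry the motif matches to which the results refer. They were read from GRCm38.p6, the build of the peak coordinates, on the forward strand from 5′ to 3′. Capitals mark the match. The first set holds matches to the CArG box, the letters that SRF is known to bind, in intronic regions of contractile genes. Binding of SRF to them was not measured. The Lmod1 region lies nearest to the start of another gene, Shisa4. The Cnn1 site lies at chr9:22100116-22100145 in an intron near the start and the Lmod1 site at chr1:135359119-135359318 in an intron, where a TEAD match also stands in capitals.
Cnn1 +0.9 kb: agccgccgcgCCTTATAAGGcggccttggg
Lmod1 +34.4 kb: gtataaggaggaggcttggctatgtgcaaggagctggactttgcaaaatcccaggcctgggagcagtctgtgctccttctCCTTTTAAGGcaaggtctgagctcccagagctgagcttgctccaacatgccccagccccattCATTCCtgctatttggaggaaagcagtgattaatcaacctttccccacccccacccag

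The second set holds intronic regions with the RBPJ letters GTGGGAA, shown as TTCCCAC where they lie on the reverse strand. RBPJ is the DNA-binding partner of Notch, and Notch3 is itself a member. They lie at chr16:14259021-14259220 for Myh11, chr17:32162171-32162370 for Notch3 and chr9:56871289-56871488 for Cspg4, which has 2 matches.
Myh11 +32.3 kb: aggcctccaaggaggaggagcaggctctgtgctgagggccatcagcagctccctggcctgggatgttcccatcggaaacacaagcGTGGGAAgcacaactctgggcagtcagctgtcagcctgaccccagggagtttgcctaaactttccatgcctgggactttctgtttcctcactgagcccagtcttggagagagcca
Notch3 +4.6 kb: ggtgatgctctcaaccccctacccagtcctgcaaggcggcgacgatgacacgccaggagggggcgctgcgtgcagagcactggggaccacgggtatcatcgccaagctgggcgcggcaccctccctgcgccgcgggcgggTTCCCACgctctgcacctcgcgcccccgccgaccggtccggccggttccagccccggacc
Cspg4 +6.4 kb: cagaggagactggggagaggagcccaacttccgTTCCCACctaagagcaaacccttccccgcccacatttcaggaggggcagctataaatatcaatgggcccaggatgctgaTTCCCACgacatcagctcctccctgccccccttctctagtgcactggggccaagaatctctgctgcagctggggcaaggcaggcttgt

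The third set holds TEAD letters, GGAATG or CATTCC, in an Abcc9 intron at chr6:142616796-142616995 and in the 250 bases before the RefSeq start of Lmod1 at chr1:135324563-135324812.
Abcc9 +85.4 kb: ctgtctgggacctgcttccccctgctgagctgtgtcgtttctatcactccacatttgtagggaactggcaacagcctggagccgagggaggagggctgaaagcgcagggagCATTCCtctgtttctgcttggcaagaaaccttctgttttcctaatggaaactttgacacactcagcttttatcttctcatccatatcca
Lmod1 promoter: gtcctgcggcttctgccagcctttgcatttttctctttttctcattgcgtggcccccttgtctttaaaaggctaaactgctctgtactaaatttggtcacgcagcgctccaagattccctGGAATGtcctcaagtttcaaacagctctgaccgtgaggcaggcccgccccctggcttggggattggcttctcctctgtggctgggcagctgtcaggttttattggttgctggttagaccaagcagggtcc

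The fourth set holds the intronic regions whose difference between groups was called in every alternative, and was chosen after these values were seen. None of the searched motifs lies within 200 bp around their summits, and the single capital marks the summit. They lie at chr1:135331204-135331403 for Lmod1 and chr9:56868424-56868623 for Cspg4.
Lmod1 +6.5 kb: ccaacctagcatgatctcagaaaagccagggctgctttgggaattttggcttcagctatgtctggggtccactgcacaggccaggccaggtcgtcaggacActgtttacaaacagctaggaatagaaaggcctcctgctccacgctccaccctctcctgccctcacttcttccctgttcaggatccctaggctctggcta
Cspg4 +3.5 kb: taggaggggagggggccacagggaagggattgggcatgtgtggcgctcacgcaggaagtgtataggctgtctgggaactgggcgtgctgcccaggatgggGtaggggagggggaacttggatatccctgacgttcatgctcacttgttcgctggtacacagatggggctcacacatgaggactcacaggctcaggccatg

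Motif matches were counted in all regions. Within 200 bp around the summit, 5 of the 111 member regions (4.5%) held a CArG box, against 1.16% of all 169881 regions of the 6 libraries. None of the 37 member regions held by all 6 libraries did, where 1.2% of the 48861 such regions genome-wide did. The RBPJ letters lay in 10 member regions (9.01%, against 4.82% of all), and the TEAD letters in 8 (7.21%, against 15%). Both strands were searched, and the CArG box reads the same on either. Promoter sequences in RefSeq were found for 7 members off chromosome 18. None of those 7 promoters held a CArG box (1.47% of 32851 promoters) or the RBPJ letters (5.42%), and 2 held the TEAD letters (12.6%). These shares are descriptions of a few regions and no test was made of them.

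Depth differed between the libraries. The number of peaks ranged from 75336 in Input 2 to 131500 in Input 1, and the background pileup put Input 1 at 4.382 times the depth of PCM1 2, with the other 4 libraries between 1.082 and 1.596 times. A missing peak means only that none was listed at the authors' q threshold in that library, which can depend on its depth. Values are also given after keeping only the 75336 strongest peaks per library, called the equal number here. The strength of a gene is the rank percentile of its strongest peak, the percent of the library's peaks with an equal or lower −log10 q, with 0 where no peak was listed.

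All 10 members had a peak in the window in every library, as had 75.8% of all protein-coding genes. With the equal number of peaks 9 of 10 did, against a background of 74.6%, and the exception was Rgs5 in PCM1 1. A peak within 1 kb of the TSS was present in all 6 libraries for 9 members, against 56.1% of all genes, and Cnn1 lacked it in Myc 1. When peak numbers were equal it was present for 8 members, against 54.9%, since both PCM1 libraries then lacked it at Rgs5. By library, the windows held 93 and 57 peaks for Input, 71 and 68 for Myc and 61 and 63 for PCM1. Over the equal number the counts were 56 and 57, 47 and 52, and 56 and 61. The higher count of Input 1 was therefore not seen at the equal number, and the 6 libraries then ranged from 47 to 61.

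The members were not among the strongest genes. The median percentile over the 10 was 89.4 and 77.8 for Input, 85.7 and 87.9 for Myc and 84.6 and 83.9 for PCM1. Over all genes the median was 91.1 and 84.1 for Input, 90.5 and 90.4 for Myc and 84.6 and 84 for PCM1. Between 1 and 3 of the 10 members exceeded the median gene in the Input and Myc libraries, and 5 in each PCM1 library. Once peak numbers were equal the group means of the members' median were 79.6 for Input, 81.1 for Myc and 82.8 for PCM1. Over all genes the median was then 84.5 and 84.1 for Input, 86.4 and 86.2 for Myc and 83 and 82.7 for PCM1, which were lowest.

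**Figure D1:**
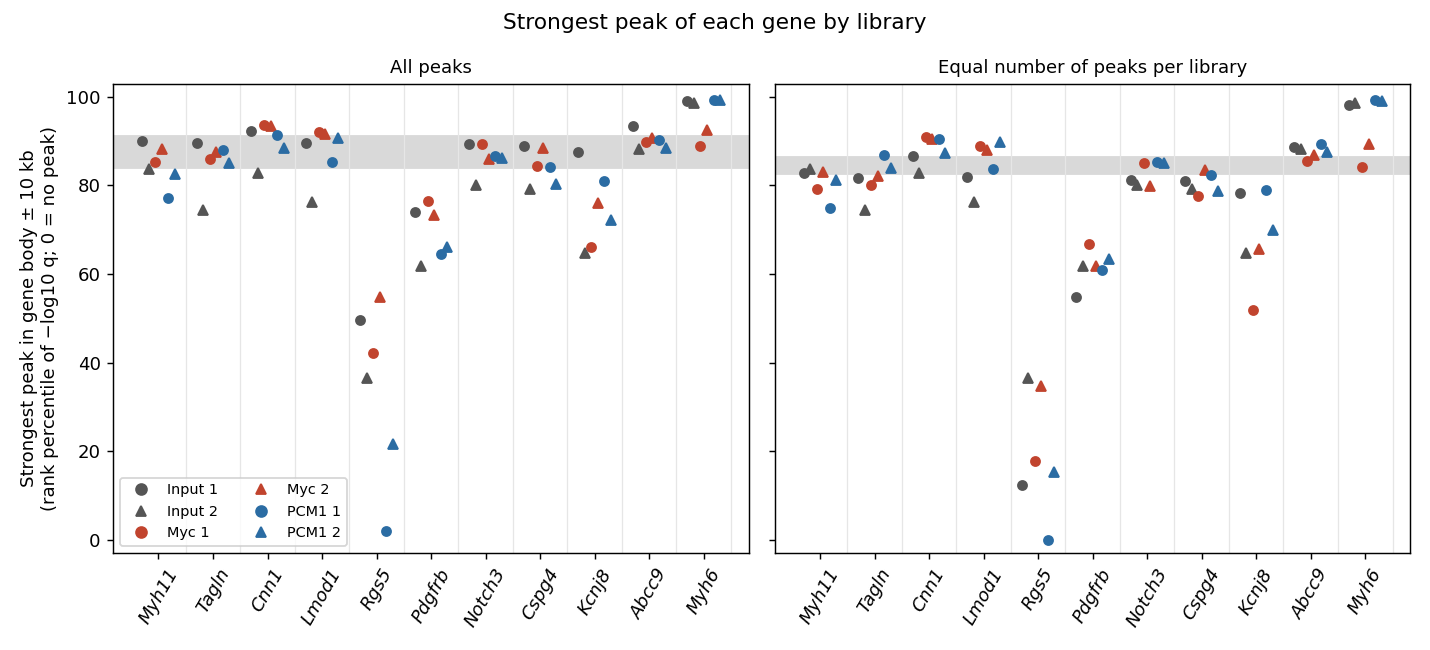
Rank percentile of the strongest peak in the gene body and 10 kb on either side (y axis, 0 meaning no peak) for the 10 members and Myh6 (x axis), in each of the 6 libraries, with all peaks (left) and at the equal number (right). The grey band spans the libraries' medians over all protein-coding genes. Rgs5 lies lowest, between 1.94 and 54.7 with all peaks, and Myh6 lies above Myh11 in every library.

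Among the contractile genes, Myh11, which encodes the myosin heavy chain of smooth muscle (chromosome 16, 14194535 to 14291372, reverse strand), had its strongest peak at a percentile of 90.1 and 83.8 for Input, 85.4 and 88.2 for Myc and 77.1 and 82.7 for PCM1. That peak was at the TSS in Input 1 and both Myc libraries and in an intron in the others. Both PCM1 libraries lay below the other 4. With the equal number they did not, at 82.8 and 83.8 for Input, 79.2 and 83 for Myc and 74.8 and 81.3 for PCM1. The 2 regions that only the PCM1 libraries held were both upstream of Myh11, at -1.3 kb and -7.2 kb from the TSS, and both were weak. Their relative height, the summit pileup divided by the library's median pileup over the 48861 regions held by all libraries, was 0.37 and 0.41 at -1.3 kb and 0.27 and 0.31 at -7.2 kb, from 8 to 12 fragments. The intronic region at +32.3 kb, which carries the RBPJ letters printed above, was held by both Input and both PCM1 libraries and by neither Myc library, as were 0.268% of all regions. At the equal number only 3 libraries held it, and 0 of 85 member regions had this pattern (1.06% of all). Its relative height was 0.23 and 0.4 in Input and 0.3 and 0.38 in PCM1.

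Tagln, which encodes the actin-binding protein transgelin (chromosome 9, 45929619 to 45936058, reverse strand), was strongest 1.1 kb upstream of its start. The percentile there was 89.5 and 74.4 for Input, 86 and 87.6 for Myc and 88.1 and 85.1 for PCM1. Both PCM1 libraries stood above the other 4 at the equal number, with 86.8 and 83.9 against 74.4 to 82.1. The region over the TSS itself was lower, with a relative height of 0.61 for Input 1, 0.72 and 0.47 for Myc and 0.77 and 0.69 for PCM1, while Input 2 listed no peak there. The region at -1.1 kb reached 1.91 and 1.47 for Input, 1.7 and 1.83 for Myc and 2.47 and 2.14 for PCM1.

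Cnn1 encodes calponin (chromosome 9, 22099216 to 22109630, forward strand). Its window reached 93.7 in Myc 1, but that peak lay 18 kb from the Cnn1 start at the promoter of Elof1, a transcription elongation factor gene. With only peaks nearest to its own TSS, the mean percentile of Cnn1 was 83.1 ± 6.98 (SD, n = 6 libraries), against 90.3 ± 4.1 with every peak of the window, and with a flank of 2 kb the mean was 33.2. The region at the Cnn1 TSS was held by 4 libraries, at a relative height of 0.65 and 0.57 in Input, 0.66 for Myc 2 and 0.53 for PCM1 1. The CArG box region at +0.9 kb was held by Input 1 at 0.4 and PCM1 2 at 0.48. The gene's own strongest region lay upstream at -3 kb, with 1.56 and 1.43 for Input, 1.91 and 1.7 for Myc and 1.13 and 1.28 for PCM1.

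Lmod1 encodes leiomodin 1, an actin filament nucleator of smooth muscle (chromosome 1, 135324807 to 135368065, forward strand). Its strongest region, at +43.6 kb, lay just past the end of the gene and nearest to the start of Shisa4, whose own start also falls in the window. With peaks nearest to its own TSS only, the mean percentile fell from 87.6 to 70.7. The TSS region of Lmod1 was modest, at 0.64 and 0.77 for Input, 0.48 and 0.55 for Myc and 0.37 and 0.79 for PCM1, and the 2 PCM1 libraries spanned the other 4. The intron region with the CArG box, at +34.4 kb, was held by every library but Input 2, at relative heights from 0.24 in Myc 1 to 0.55 in PCM1 2.

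**Figure D2:**
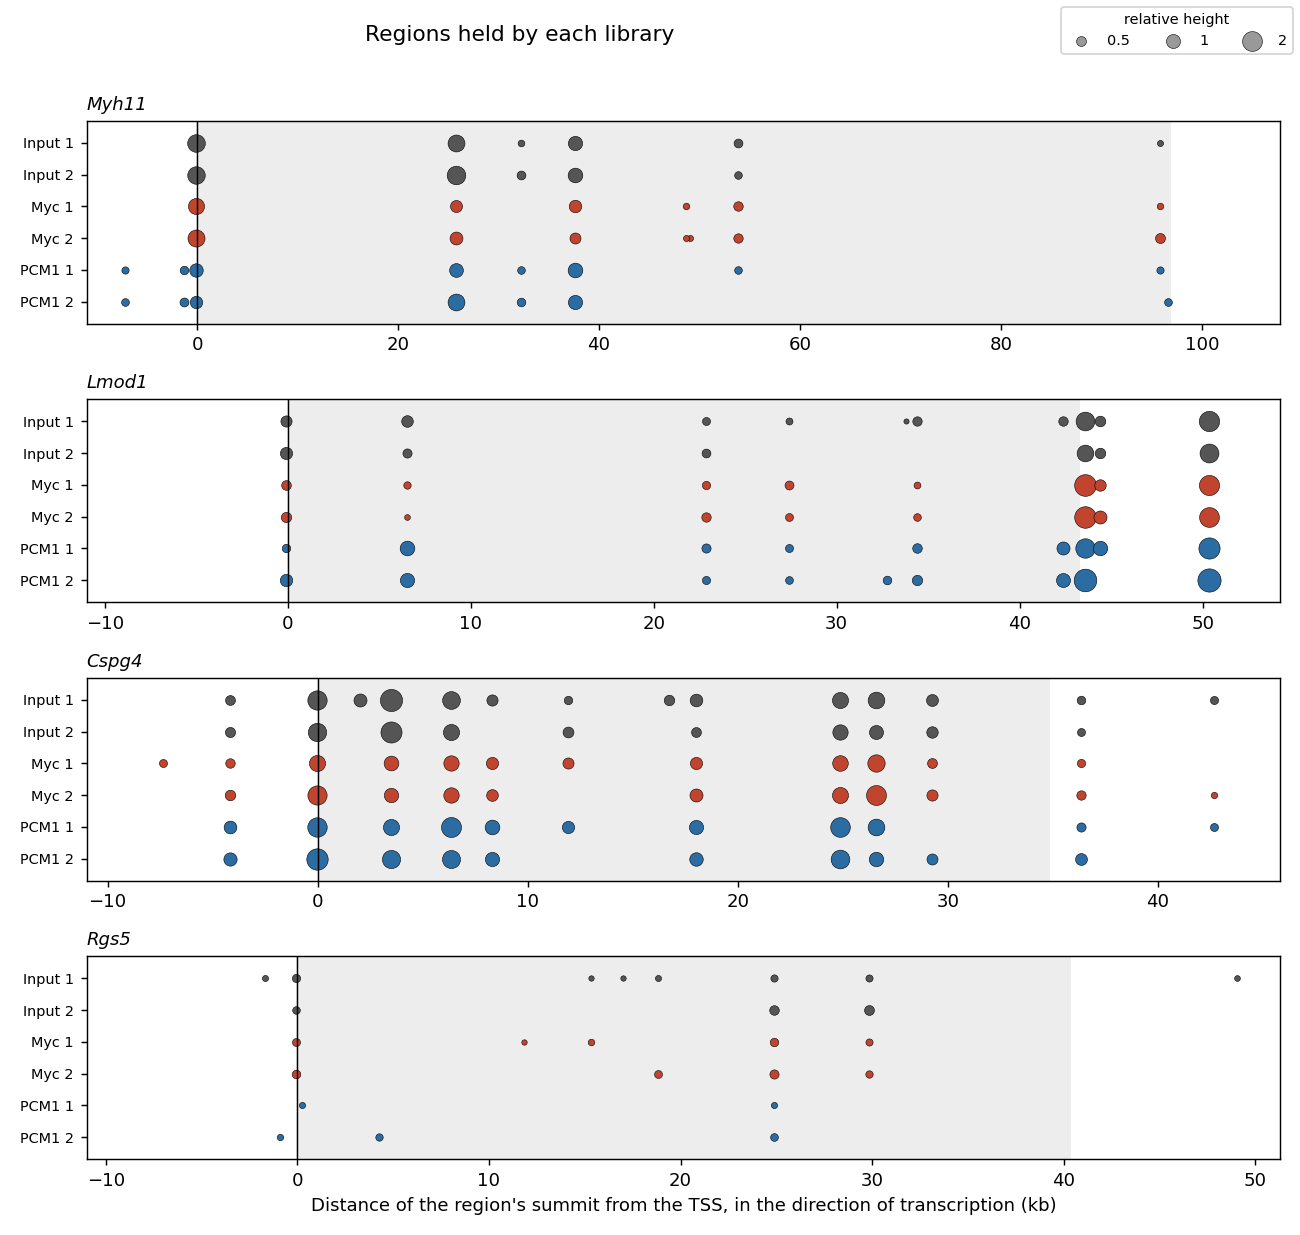
Regions of the Myh11, Lmod1, Cspg4 and Rgs5 windows by distance of the summit from the TSS in kb (x axis, positive into the gene) in each library (rows). The area of a point is the relative height, no point means no listed peak, and the grey span is the gene body. The Lmod1 region at +6.5 kb is small in the Myc rows and the Rgs5 region at the TSS has no point in the PCM1 rows.

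Of the pericyte genes, Rgs5 was the weakest member in every library with all peaks. It encodes a regulator of G protein signalling that is widely used as a pericyte marker (chromosome 1, 169655501 to 169695813, forward strand). The percentile was 49.7 and 36.5 for Input, 42.2 and 54.7 for Myc and 1.94 and 21.6 for PCM1. Both PCM1 libraries lay below the other 4. With the equal number of peaks the groups overlapped, with 12.3 and 36.5 for Input, 17.7 and 34.7 for Myc and 0 and 15.2 for PCM1. The region at the Rgs5 TSS, centred 0.1 kb upstream, had a pileup of 39 and 9 fragments in Input and 15 and 18 in Myc, with relative heights between 0.3 and 0.38. Neither PCM1 library listed a peak in it, where the smallest pileup of any listed peak was 5 fragments. The peaks within 1 kb that they did list, at +0.3 kb in PCM1 1 and -0.9 kb in PCM1 2, had 6 fragments each (exact Poisson 95% interval 2.2 to 13.1). The intron region at +24.9 kb was held by all libraries, with 30 and 14 fragments for Input, 17 and 20 for Myc and 6 and 9 for PCM1. Intervals cover counting error only.

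Pdgfrb, which encodes the receptor for PDGF-B (chromosome 18, 61045150 to 61085061, forward strand), reached 74.1 and 61.8 for Input, 76.6 and 73.4 for Myc and 64.5 and 66.1 for PCM1. The strongest peak lay in an intron at +9.5 kb in both Input libraries and PCM1 2. In both Myc libraries it lay in an intron at +23.4 kb, where Input 2 listed no peak, and in PCM1 1 at the TSS. When peak numbers were equal the 6 libraries lay between 54.8 and 66.8 and the groups overlapped. Its TSS region had a relative height of 0.72 and 0.7 for Input, 0.83 and 0.72 for Myc and 0.97 and 0.55 for PCM1. The window also holds the start of Cdx1, a homeobox gene, where Input 2 alone listed a peak, at a percentile of 4.31. The single region held only by the Input libraries was a weak intron region of Pdgfrb at +20.9 kb, at 0.27 and 0.3.

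Notch3, the Notch receptor of mural cells (chromosome 17, 32120820 to 32166852, reverse strand), was strongest at a coding exon 23.5 kb into the gene, except in Input 2. The percentile of the gene was 89.3 and 80.1 for Input, 89.4 and 86 for Myc and 86.6 and 86.3 for PCM1. Over the equal number both PCM1 libraries, at 85.2 and 85.1, were above the other 4, of which Myc 1 was at 85. The TSS region was lower, with relative heights of 0.89 and 1.23 for Input, 0.72 and 0.47 for Myc and 0.87 and 0.52 for PCM1. The intron region with the RBPJ letters, at +4.6 kb, was held by both Input libraries, Myc 1 and PCM1 1, between 0.53 and 0.63.

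Cspg4, which encodes the NG2 proteoglycan (chromosome 9, 56865033 to 56899870, forward strand), had the densest window of the 10, with 15 and 10 peaks for Input, 14 and 12 for Myc and 11 in each PCM1 library. That was a mean of 22.2 peaks per 100 kb of window. Its strongest peak stood at 89 and 79.2 for Input, 84.3 and 88.5 for Myc and 84.1 and 80.4 for PCM1, and the groups overlapped. That peak lay in introns, at +3.5 kb in both Input, +26.6 kb in both Myc and +24.9 kb in both PCM1 libraries. These values are therefore not of the same region. The TSS region covers the start of Odf3l1, at -354 bp, so its height of 1.91 and 1.73 for Input, 1.33 and 1.89 for Myc and 1.93 and 2.34 for PCM1 belongs to both genes.

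Kcnj8 and Abcc9 lie next to each other on chromosome 6 and encode Kir6.1 and SUR2, the pore and the sulfonylurea receptor of the ATP-sensitive potassium channel of vascular smooth muscle. SUR2 also serves the channel of cardiomyocytes. Kcnj8 (142564837 to 142571614, reverse strand) stood at 87.5 and 64.7 for Input, 66.2 and 76.1 for Myc and 80.9 and 72.2 for PCM1, with its strongest region at the TSS. Abcc9 (142587862 to 142702315, reverse strand) was among the strongest members and the least variable, at 93.5 and 88.2 for Input, 89.8 and 90.8 for Myc and 90.3 and 88.5 for PCM1 (mean 90.2 ± 1.91, SD, n = 6). Once peak numbers were equal both Myc libraries, at 85.5 and 86.8, were below the other 4, between 87.6 and 89.3. In every library but Myc 2 its strongest region was in an intron at +12.5 kb, with a relative height of 2.27 and 2.2 for Input, 1.89 and 1.49 for Myc and 2.13 and 2 for PCM1. The TSS region had 1.25 and 0.87 for Input, 1.04 and 0.98 for Myc and 1.1 and 1.31 for PCM1. Their windows share 1 region, a peak of Myc 1 at a percentile of 3.29.

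By mean percentile over the 6 libraries with all peaks the order was Cnn1 (90.3), Abcc9 (90.2), Lmod1 (87.6), Notch3 (86.3), Tagln (85.1), Myh11 (84.6), Cspg4 (84.3), Kcnj8 (74.6), Pdgfrb (69.4) and Rgs5 (34.5). Neighbours from Cnn1 to Cspg4 differed by less than the larger of their SDs, which were between 1.91 and 6.05. Kcnj8 (SD 8.76) lay below Cspg4 by more than either SD, Pdgfrb (SD 6.05) was within the spread of Kcnj8, and Rgs5 (SD 19.6) lay below Pdgfrb by more than either. Ranked by fold, Kcnj8 (74.2) stood above Cspg4 (71.9), and with own nearest TSS Lmod1 (70.7) stood below Kcnj8 (74.6), so the order depends on these choices. A longer window offers more peaks, so the order is not one of accessibility per base.

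With the equal number of peaks, both libraries of a group stood apart from the other 4 at 5 of the 10 members, against 68.7% of the 18071 genes compared. Both Input libraries were below the rest at Cnn1 and Lmod1 (8.96% of those genes) and above the rest at no member (7.9%). Both Myc libraries were above the rest at Cnn1 (29.5%) and below at Abcc9 (13.8%). Both PCM1 libraries were above the rest at Tagln and Notch3 (12.4%) and below at none (23.5%). The values of Cnn1 and Lmod1 are those of the regions at Elof1 and nearest to Shisa4. A one-sided permutation test of 2 libraries against 4 cannot go below 0.0667, so none was run on single genes.

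Of the 111 regions, 37 (33.3%) were held by all 6 libraries, against 28.8% of all regions, and 31 (27.9%) by a single library, against 30.4%. Of the 31, 15 were in Input 1 alone. At the equal number 31 of 85 regions (36.5%) were held by all, against 37%, and 23 (27.1%) by a single library, against 25.4%. Only Input held 1 of the 111 regions (1.08% of all regions), only Myc held 1 (1.84%), an intron region of Myh11 at +48.6 kb, and only PCM1 held 2 (0.254%). With the equal number of peaks these counts were 0 (1.01%), 1 (1.96%) and 3 (1.35%) of 85. The Myh11 region at +48.6 kb was then not held by any library, so the 1 for Myc is a different region. Held by both Input and both Myc libraries and by neither PCM1 library were 4 regions (2.26%). They were the Rgs5 TSS, Rgs5 at +29.9 kb, a region 14.2 kb from the Kcnj8 start past its end, and the Abcc9 intron at +85.4 kb printed above with its TEAD letters. When peak numbers were equal 1 such region was left (1.6%).

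Heights were compared at the 37 member regions held by all libraries, with limma on the log2 of the median-scaled summit pileups of all 48861 such regions. Each of the 10 members had at least 1 such region, and the rest of the 111 regions could not be compared in this way. Differences are given as log2 with a 95% interval, and p-values were adjusted over all 48861 regions. In Myc against Input, 2 member regions were higher (4.16% of all regions were) and 4 lower (9.12%). In PCM1 against Input, 1 was higher (2.88%) and 2 lower (7.91%). In Myc against PCM1, 2 were higher (15.1%) and 4 lower (13.7%). These comparisons share their libraries. Over all regions, higher calls were 31.3% of calls in Myc against Input and 26.7% in PCM1 against Input, and with cyclic loess in place of the median they were 43.5% and 43.9%. The median difference over the 37 was -0.04, 0.1 and -0.3 in that order, against -0.02, -0.04 and -0.0 over all regions. The 15 calls fell on 10 regions of 6 members, of which 5 were intronic, where 18 of the 37 tested were, and 1 was at a TSS. Thus 27% of the member regions had a call in at least 1 comparison, against 35.1% of all regions. Tagln, Rgs5, Kcnj8 and Abcc9 had no call.

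The largest difference was in an Lmod1 intron at +6.5 kb (135331110 to 135331641). Its relative height was 0.69 and 0.43 for Input, 0.28 and 0.17 for Myc and 1.1 and 1.03 for PCM1, and the 3 groups did not overlap. Myc was lower than PCM1 by a log2 difference of -2.28 (-2.99 to -1.57, adjusted p = 5.88e-06), which is 4.86-fold, and lower than Input by -1.32 (-2.03 to -0.61, adjusted p = 0.00896). The Myc 2 value rests on 8 fragments. PCM1 was above Input by 0.96 (0.25 to 1.67, adjusted p = 0.0698). The call against PCM1 held with each library left out, and the call against Input was lost without Input 1 or without Myc 2.

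In a Cspg4 intron at +3.5 kb (56868224 to 56868714), Input stood above the other libraries, with 2.5 and 2.27 for Input, 1.11 and 1.06 for Myc and 1.33 and 1.69 for PCM1. Myc was lower than Input by -1.13 (-1.56 to -0.7, adjusted p = 0.000225), a 2.19-fold difference that held with each library left out. PCM1 was lower than Input by -0.67 (-1.1 to -0.24, adjusted p = 0.0362), a call lost with cyclic loess and without Input 1, Input 2 or PCM1 1. The neighbouring region at +6.4 kb, with the 2 RBPJ matches, was at 1.61 and 1.33 for Input, 1.2 and 1.21 for Myc and 2.03 and 1.66 for PCM1, and Myc was below PCM1 by -0.61 (-1.05 to -0.16, adjusted p = 0.034). That call was lost without Myc 1, Myc 2 or PCM1 1.

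Myh11 differed between groups at its start and in an intron. The TSS region (14291176 to 14291642) had heights of 1.59 and 1.57 for Input, 1.33 and 1.49 for Myc and 0.93 and 0.79 for PCM1, with both PCM1 libraries lowest. PCM1 was lower than Input by -0.88 (-1.36 to -0.4, adjusted p = 0.0129), and Myc was higher than PCM1 by 0.71 (0.23 to 1.19, adjusted p = 0.022). Myc and Input differed by -0.17 (-0.65 to 0.31). The first call was lost without Input 1, Input 2 or PCM1 2 and the second without Myc 1, Myc 2 or PCM1 2. The intron region at +25.7 kb stood at 1.46 and 1.77 for Input, 0.74 and 0.85 for Myc and 0.97 and 1.45 for PCM1. There Myc was lower than Input by -1.02 (-1.54 to -0.5, adjusted p = 0.0057), and both PCM1 libraries lay between those groups. The call was lost without Input 2 or Myc 1.

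**Figure D3:**
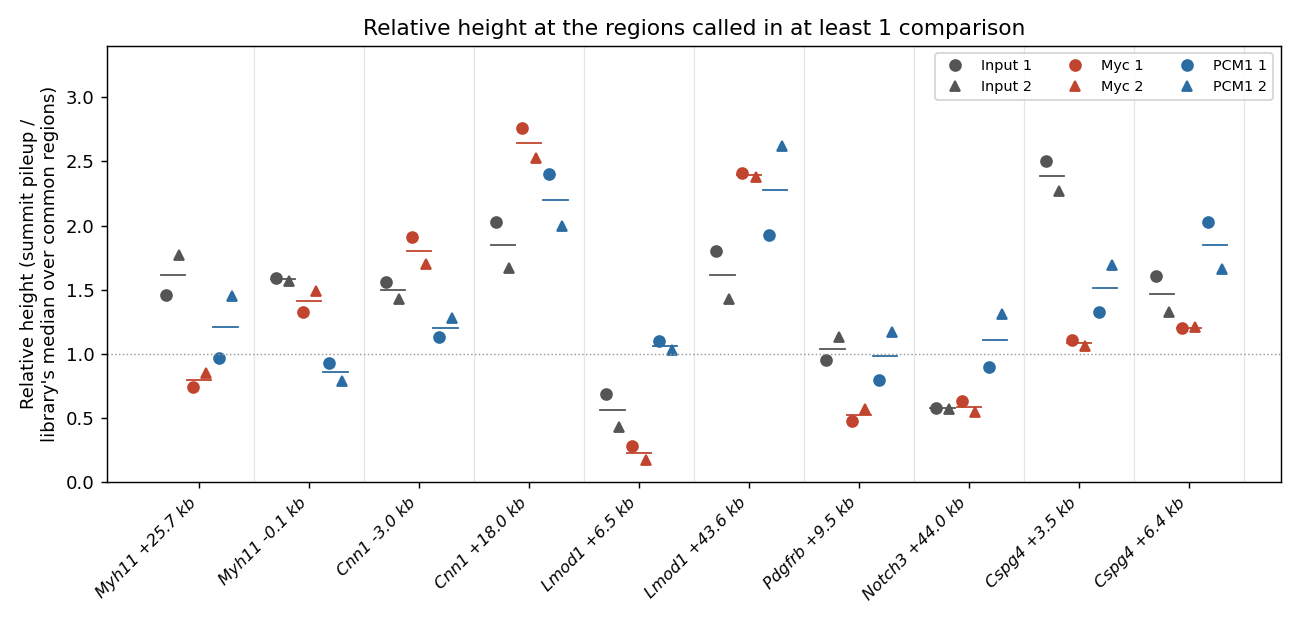
Relative height (y axis, summit pileup over the library's median at common regions) at the 10 member regions called in at least 1 comparison (x axis), for each library, with a bar at each group's mean and a dotted line at the median region. At Lmod1 +6.5 kb the Myc libraries lie at 0.28 and 0.17, and at Cspg4 +3.5 kb the Input libraries lie at 2.5 and 2.27.

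Pdgfrb and Notch3 each had calls at 1 region. In a Pdgfrb intron at +9.5 kb, heights were 0.95 and 1.13 for Input, 0.48 and 0.57 for Myc and 0.8 and 1.17 for PCM1. Myc was lower there than Input by -0.98 (-1.58 to -0.38, adjusted p = 0.0223) and than PCM1 by -0.89 (-1.49 to -0.28, adjusted p = 0.0224). The former was lost without any one of the Input and Myc libraries and the latter without Myc 1 or PCM1 2. In a Notch3 coding exon at +44 kb, heights were 0.58 and 0.57 for Input, 0.63 and 0.55 for Myc and 0.9 and 1.31 for PCM1. PCM1 was higher there than Input by 0.92 (0.29 to 1.54, adjusted p = 0.0477) and Myc lower than PCM1 by -0.88 (-1.5 to -0.26, adjusted p = 0.0286). The first of these was lost with cyclic loess and without any library except PCM1 1, and the second without Myc 1, Myc 2 or PCM1 2.

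Both member regions that were higher in Myc than in Input lie nearest to the start of another gene. At the Elof1 promoter in the Cnn1 window, heights were 2.03 and 1.67 for Input, 2.76 and 2.53 for Myc and 2.4 and 2 for PCM1, and Myc exceeded Input by 0.52 (0.16 to 0.89, adjusted p = 0.0491), a call lost without any one of those 4 libraries. At +43.6 kb in the Lmod1 window they were 1.8 and 1.43 for Input, 2.41 and 2.38 for Myc and 1.93 and 2.62 for PCM1, and Myc exceeded Input by 0.58 (0.19 to 0.97, adjusted p = 0.0394), a call lost without Input 2, Myc 1 or Myc 2. Upstream of Cnn1, at -3 kb, Myc exceeded PCM1 by 0.59 (0.15 to 1.02, adjusted p = 0.0384), lost without Input 1, Myc 1, Myc 2 or PCM1 1.

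The members without a call had the following differences and intervals. The Tagln region at -1.1 kb differed by 0.46 (0.06 to 0.85, adjusted p = 0.133) between PCM1 and Input and by 0.07 (-0.32 to 0.47) between Myc and Input. The Kcnj8 TSS differed by -0.49 (-1.03 to 0.05) between Myc and Input and by -0.07 (-0.61 to 0.47) between PCM1 and Input. The 7 Abcc9 regions differed by -0.48 to 0.14 between Myc and Input, with intervals reaching from -1.08 to 0.81, and by -0.38 to 0.23 between PCM1 and Input, with intervals from -1.06 to 0.81. Between Myc and PCM1 they differed by -0.68 to 0.52, with intervals from -1.29 to 1.19. Rgs5 at +24.9 kb differed by 0.67 (-0.08 to 1.43) between Myc and PCM1. The median interval reached 0.55 to either side of the difference.

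**Figure D4:**
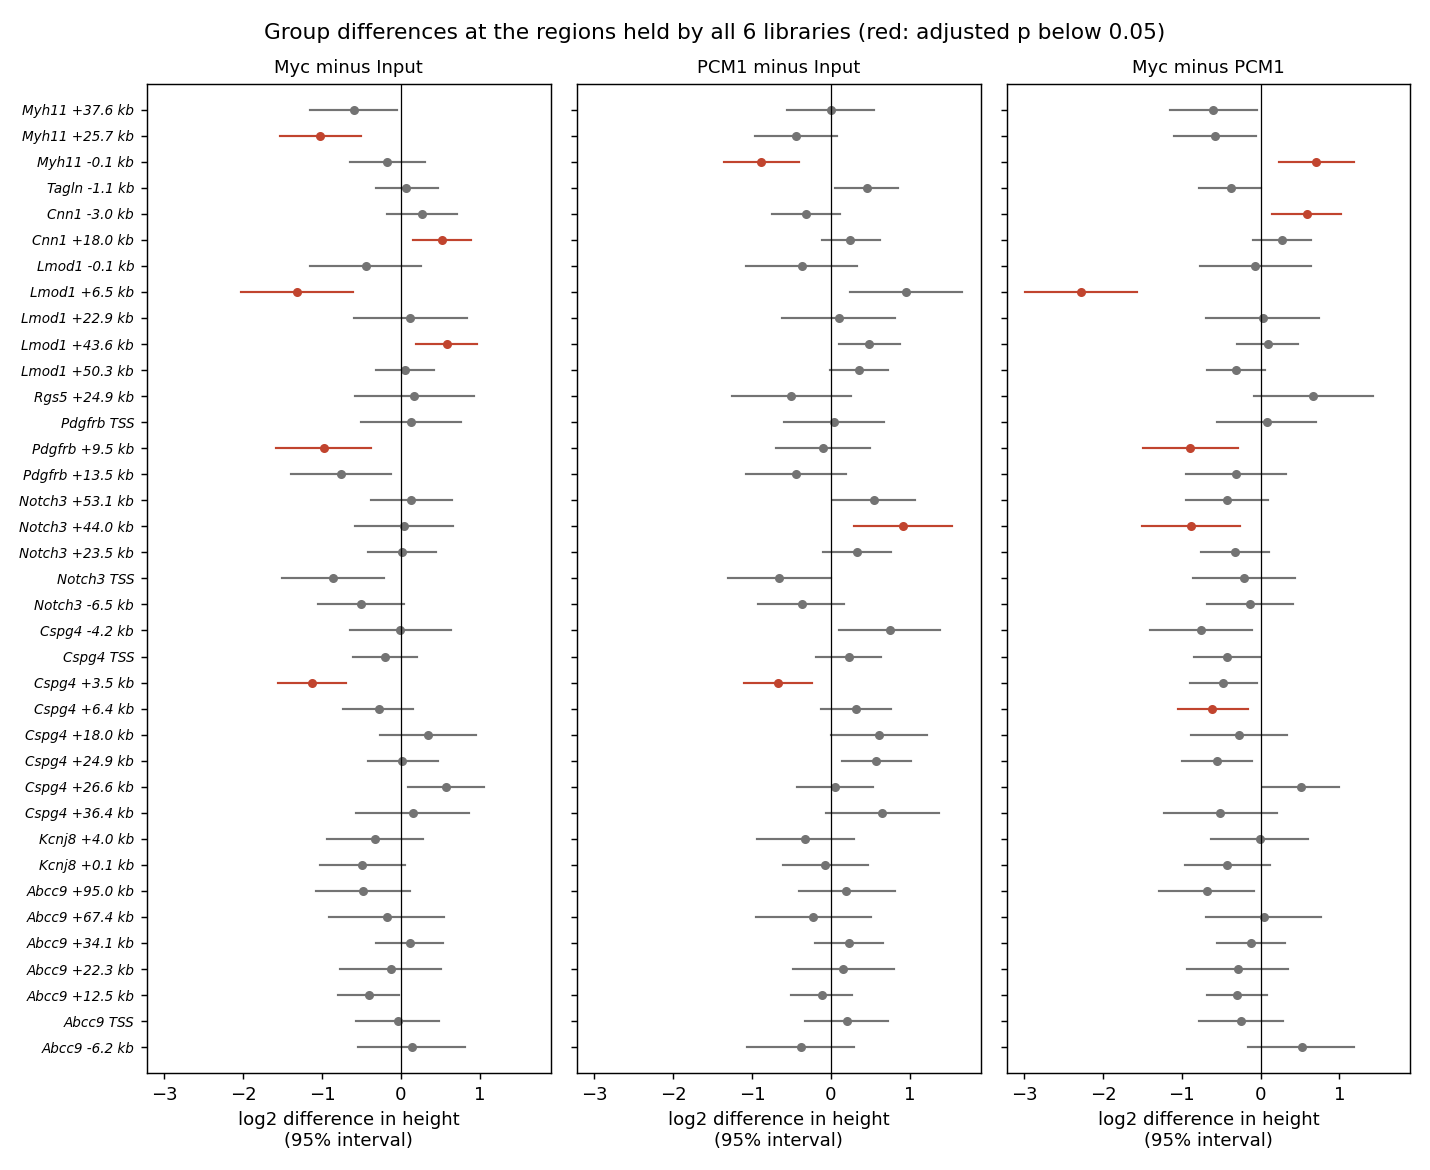
log2 difference in height with its 95% interval (x axis) at the 37 member regions held by all 6 libraries (y axis), for Myc minus Input, PCM1 minus Input and Myc minus PCM1, with regions at an adjusted p below 0.05 in red. Lmod1 +6.5 kb lies farthest from 0, at -2.28 for Myc minus PCM1.

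Related genes were described by the same counts. Region calls are to be read against the shares over all regions. These were 4.16% higher and 9.12% lower in Myc against Input, and 2.88% and 7.91% in PCM1 against Input. In Myc against PCM1 they were 15.1% and 13.7%. For a TSS peak in both libraries of a group, no share over all genes was computed. In all 6 libraries, which is stricter, 56.1% of all protein-coding genes had a TSS peak. Of the other 10 contractile genes, which include Acta2, smooth muscle actin, 8 had a TSS peak in both Input libraries, 9 in both Myc and 8 in both PCM1, and 60 of their regions were held by all libraries. Of these 60, 1 was higher and 6 lower in Myc than in Input, and 5 were higher and 1 lower in PCM1 than in Input. In Myc against PCM1, 4 were higher and 11 lower, with a median of -0.29. Actg2, enteric smooth muscle actin, had the highest median percentile at the equal number (97.7) and Tpm2, a tropomyosin, the lowest (77.6). All 10 regulators had a TSS peak in both libraries of every group, with Mrtfa, a myocardin-related cofactor of SRF, highest (99.5) and Tcf21, a factor of the epicardial lineage, lowest (58.1). Of the regulators' 53 common regions, 1 was higher and 9 lower in Myc than in Input, and 0 higher and 5 lower in PCM1 than in Input, while 9 were higher and 10 lower in Myc than in PCM1.

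Of the 10 Notch and PDGF partners, 8, 9 and 8 had a TSS peak in both Input, Myc and PCM1 libraries. Hey2, a Notch target, was highest (96.6) and Jag1, a Notch ligand, lowest (82.4), and of 41 common regions 3 were higher and 5 lower in Myc than in Input and 2 higher and 3 lower in PCM1 than in Input. Against PCM1, 6 of the 41 were higher and 6 lower in Myc. Of the 10 other mural cell genes, 5, 6 and 5 had such a TSS peak. Vtn, vitronectin, stood highest (94.1) and Higd1b, a pericyte marker, lowest (23.9), and of 24 common regions 1 was higher and 0 lower in Myc than in Input and 1 was higher and 1 lower in PCM1 than in Input. Against PCM1, 6 of the 24 were higher and 2 lower in Myc. Of the 4 potassium channel partners, 3 had a TSS peak in both libraries of each group, with Kcnj2, the inward rectifier Kir2.1, highest (96.2) and Kcnj11, Kir6.2, lowest (89.2). Of their 21 common regions, 7 were lower and 0 higher in Myc than in Input, and 0 were called in PCM1 against Input. Against PCM1, 9 of the 21 were lower and 0 higher in Myc.

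Regions at markers of other cells were counted in the same way. Of 60 common regions of 10 cardiomyocyte genes, 29 were lower and 0 higher in Myc than in Input, with a median of -0.49, and 14 were higher and 0 lower in PCM1 than in Input, with a median of 0.27. In Myc against PCM1, 42 were lower and 1 higher, with a median of -0.83. Of 22 at fibroblast genes, 1 was higher and 1 lower in Myc than in Input, 0 were called in PCM1 against Input, and 3 were higher and 2 lower in Myc than in PCM1. Of 61 at endothelial genes, 4 were higher and 4 lower in Myc than in Input, 2 higher and 1 lower in PCM1 than in Input, and 5 higher and 8 lower in Myc than in PCM1. The median percentile of the cardiomyocyte genes ranged over libraries from 96.3 to 97.5 for Input, from 91.6 to 92.9 for Myc and from 96.6 to 96.8 for PCM1. That of the fibroblast genes ranged from 63.9 to 80.2 for Input, from 74.4 to 77.4 for Myc and from 59 to 62.4 for PCM1, and that of the endothelial genes stayed between 85.1 and 89.9 in all libraries. Over the 6 libraries, Col3a1, a fibrillar collagen, lay between 12.4 and 61.2, Col1a1 between 93.5 and 97.4, and Pecam1, an endothelial adhesion molecule, between 94.3 and 98.5. With peaks nearest to its own TSS only, Pecam1 lay between 61.3 and 78, so its higher values are those of peaks nearest to another gene. A peak at the Pecam1 TSS was listed in 3 libraries. With a flank of 2 kb, Col1a1 lay between 71.5 and 87.9. Lum, a fibroblast proteoglycan, had a median of 0 with the equal number. Their part in the differences at the smooth muscle and pericyte genes was not tested.

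Myh6, the cardiac myosin heavy chain, was compared with its smooth muscle counterpart in each library. The percentile of Myh6 was 99 and 98.7 for Input, 88.8 and 92.6 for Myc and 99.3 and 99.2 for PCM1, above Myh11 in 6 of 6 libraries. The difference averaged 11.7 ± 7.39 points (SD, n = 6). Flipping the signs of the differences in an exact two-sided permutation gave p = 0.0312, which no arrangement of 6 libraries can undercut. The test treats the 6 libraries alike, although they differ in pull-down and genotype. Its p therefore does not measure a spread between replicates of a condition. Ranked by fold over the local background instead of by q, the difference was reversed, at -43.7 points with the same exact p. Tnnt2, cardiac troponin T, lay between 92.3 and 97.9, and Acta2 at 83.2 and 65.3 for Input, 84.3 and 87.4 for Myc and 81.2 and 85.7 for PCM1. The 3 of 21910 other genes whose percentiles at the equal number were closest to those of Myh11 over the 6 libraries were Brdt, Plscr1 and Cox8b, at Euclidean distances of 3.25, 4.37 and 5.19 points.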

How the data were processed

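The authors trimmed the Omni-ATAC-Seq reads, mapped them to mm10, marked duplicates, removed blacklisted regions, shifted reads for the Tn5 offset and ran MACS2 on every library, with a q threshold of 0.05. Per the submitters' processing notes, Bowtie2 2.3.3.1, Picard 2.2.1, bedtools 2.7.1 and MACS2 2.1.0.20160309 were used, and HOMER and FastQC 0.11.5 are also listed. The deposited lists hold, for each peak, a score, a fold over the local background (a ratio), the −log10 p-value and the −log10 q-value. No read counts were used. Listed fold and p together give the summit pileup, and at least 99.998% of pileups came out whole within 0.02, so these were taken as fragment counts. Whole values do not tell fragments from single reads, so the fragment numbers and their Poisson intervals rest on this assumption. Heights were compared only at regions listed in all 6 libraries.

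Peaks were placed on GENCODE M21 genes with Python 3.11.15 (numpy 2.4.6, pandas 2.3.3, scipy 1.17.1, matplotlib 3.10.9). Windows reached 10 kb to either side of a gene, and a TSS peak lay within 1 kb. Heights were tested with limma 3.58.1 in R 4.3.3 (limma-trend, Benjamini-Hochberg adjustment, threshold 0.05), a test added after the data had been seen. The planned comparisons of groups had no test, because 2 libraries against 2 cannot go below a two-sided exact p of 0.333. On simulated data of 48861 regions, limma recovered 35% of 100 regions changed by 1 on the log2 scale in Myc against Input. Of 100 changed by 2 it recovered 89%, and there was 1 false call. The simulated spread between libraries was a fixed negative binomial dispersion, not one estimated from these libraries. These rates therefore do not calibrate the fits to the real data. The labels number the 2 libraries of each group, and the study's methods describe them as independent biological replicates.

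The members and the gene lists were chosen with earlier results of these data known. Named were the 10 members, the markers the study names, the highest and lowest gene of each list, the 3 genes most like Myh11, the TSS, strongest and group-only regions, and, outside that rule and after their values were seen, the regions called by limma and others cited beside a motif or a library difference. Alternatives were an equal number of peaks, a q threshold of 0.01, a 2 kb flank, ranks by fold, own nearest TSS, a TSS distance of 200 bp, 50% coverage of a region and each library left out. For limma, cyclic loess, a replicate block and each library left out were added after seeing the data. Sequences are from the GRCm38.p6 genome and RefSeq promoters of that build. Promoters of Myh11 and Tagln had no RefSeq entry in the table used, and no sequence of Pdgfrb is shown. Some motif matches counted are not reported here by sequence.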

Additional observations from a re-analysis of the deposited data

How the results depend on the processing

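The height of regions rests on few fragments in 5 of the libraries, where the median pileup at common regions was 29 to 47 against 113 in Input 1, and the median 95% interval of a member region reached 0.55 on the log2 scale. All 15 limma calls at member regions kept their direction under the 8 alternatives, and 2 remained called under all of them. The replicate numbers do not pair the libraries, since the differences between replicate 1 and 2 correlated at 0.00719, -0.00412 and 0.00585 across regions. With a replicate block, the fits of Myc against Input, PCM1 against Input and Myc against PCM1 called 6632, 5433 and 14195 regions, against 6493, 5272 and 14101 without it, and all 15 calls at member regions remained. With cyclic loess in place of the median, 13 remained, PCM1 against Input called 1 member region instead of 3, and the share of higher calls rose from 31.3% to 43.5% in Myc against Input and from 26.7% to 43.9% in PCM1 against Input. With each library left out in turn, Myc against Input called 2372 to 8511 of all regions and 2 to 7 of the member regions, PCM1 against Input 1511 to 4677 and 0 to 3, and Myc against PCM1 8232 to 13223 and 1 to 7. A lone library was assumed to vary like the other groups.

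The median percentile of the members moved from 86.8 to 81.1 in Myc at the equal number. In PCM1 it moved from 84.3 to 82.8 at the equal number, 82 with a 2 kb flank, 83.1 by fold and 79.7 with own nearest TSS. Requiring 50% coverage, 24 regions instead of 37 were held by all libraries (21.6%, against 20.7% of all regions). Input, Myc and PCM1 alone then held 0, 2 and 1 (1.22%, 2.01% and 0.277% of all regions). Without 1 library, the counts held by 1 group only ranged from 1 to 16 in Input, 1 to 6 in Myc and 2 to 9 in PCM1. Those held by Input and Myc ranged from 4 to 7. The 16 came without Input 2, as 14.5% of member regions against 13% of all regions. The 6 came without Myc 2 (5.5% against 7.79%) and the 9 without PCM1 1 (8.18% against 3.31%). The 7 also came without PCM1 1 (6.36% against 4.74%). At the equal number the counts were 0 for Input alone and 1 for Input and Myc. Ranked by fold, Myh6 minus Myh11 reversed to -43.7 points, and the cause was not tested. Without one library the difference was between 9.6 and 13.4 points, where 5 libraries cannot give a p below 0.0625. Of 40 alternatives of single members' values, 28 moved them by less than the spread between replicates.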
